A study of Drosophila melanogaster with 3 samples.

Results

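The Sox genes of Drosophila melanogaster were examined as a family for Chiffon chromatin occupancy in embryos: Sox14, SoxN, D (Dichaete), Sox15, Sox21a, Sox21b, Sox100B and Sox102F, 8 of 13945 annotated protein-coding genes. The genes were taken by symbol, and the family was chosen by a measured value: the promoter region of Sox14 had 1 of the highest signal values of the data. That value and the regions of Sox14 are therefore a description, and no test was made on the family. The data are chromatin immunoprecipitation followed by sequencing (ChIP-seq) with anti-GFP antibody on whole embryos of 0 to 24 h, males and females pooled, in 3 biological replicates of 1 group. All replicates came from a transgenic line that stably expresses the RA isoform of chif with GFP at its C terminus (strain chif-RA-GFP), with sonicated chromatin of 200 to 800 bp. There was no second genotype, stage or treatment, and no untagged or input library was analysed here, so every comparison is between regions or genes of the same embryos. Whole embryos mix all tissues and a full day of development, so a region cannot be assigned to the cells in which a Sox gene is used.

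Sox proteins bind DNA through a high mobility group (HMG) box, which contacts the minor groove and bends the helix. SoxN and D act in the neuroectoderm and the developing central nervous system, Sox14 is induced by the steroid hormone ecdysone and is needed for dendrite pruning at metamorphosis, Sox21a acts in progenitors of the adult intestine, and Sox100B belongs to the group of mammalian SOX9. Chiffon is related to Dbf4, the activating subunit of the replication kinase Cdc7, and a separate C-terminal product of the same gene binds the histone acetyltransferase Gcn5.

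The authors' list of regions that passed the irreproducible discovery rate (IDR), a procedure that compares ranks between replicates, held 9 regions in the Sox loci. A locus was the gene body with 5 kb on either side. All 9 had the same signal value and rank in the list called on the pooled replicates. IDR regions were not all ranked alike between replicates: 3492 of 3684 had a region in every replicate list. The IDR region 7035 bp from the Sox15 gene body had ranks of 28728, 15259 and 1850 in replicates 1, 2 and 3. The sequences around 5 of the 9 summits, the positions of highest signal, are shown: the regions near Sox21a, Sox102F and D and the distal region of Sox100B. These 5 are a selection, and each holds a motif marked below. The Sox14 window, which is not shown, held none of the motifs searched. Each run covers the summit and 100 bases on either side of it in the dm6 genome (RefSeq Release 6), read 5′ to 3′ on the strand of the Sox gene named. Capitals mark matches, on either strand, to AACAAT (a Sox protein core site), TATAAA (the letters of a TATA box) and AGGTGGCGC or AGATGGCGC (the core of the Drosophila CTCF insulator site). Matches were sought by letters alone, without regard to orientation or distance from a start site. A TATAAA match therefore does not by itself mark a core promoter.
Sox21a, intergenic, chr3L:14111524-14111724, minus strand: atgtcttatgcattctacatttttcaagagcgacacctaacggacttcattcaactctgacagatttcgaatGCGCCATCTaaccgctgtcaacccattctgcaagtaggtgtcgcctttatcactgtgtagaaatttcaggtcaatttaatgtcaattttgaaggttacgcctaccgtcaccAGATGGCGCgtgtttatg
Sox100B, distal region, chr3R:31061455-31061655, plus strand: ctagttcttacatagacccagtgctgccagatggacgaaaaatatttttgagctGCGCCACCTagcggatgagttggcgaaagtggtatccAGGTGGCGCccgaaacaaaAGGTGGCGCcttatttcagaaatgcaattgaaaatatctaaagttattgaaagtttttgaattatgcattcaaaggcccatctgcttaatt
Sox102F, middle promoter, chr4:807467-807667, minus strand: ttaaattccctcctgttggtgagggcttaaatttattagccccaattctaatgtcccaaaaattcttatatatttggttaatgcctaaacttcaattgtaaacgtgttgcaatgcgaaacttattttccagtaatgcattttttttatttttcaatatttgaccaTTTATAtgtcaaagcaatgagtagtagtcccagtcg
D, nearer region, chr3L:14174332-14174532, minus strand: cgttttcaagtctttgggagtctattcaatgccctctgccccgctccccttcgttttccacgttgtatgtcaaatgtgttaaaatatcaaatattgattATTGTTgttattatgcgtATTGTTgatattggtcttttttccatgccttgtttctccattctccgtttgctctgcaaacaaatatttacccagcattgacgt
D, farther region, chr3L:14172592-14172792, minus strand: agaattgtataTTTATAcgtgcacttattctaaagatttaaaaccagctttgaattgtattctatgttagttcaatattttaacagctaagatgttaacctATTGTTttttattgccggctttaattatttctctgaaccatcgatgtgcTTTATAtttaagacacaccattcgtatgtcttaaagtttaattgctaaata
The distal Sox100B window held 3 copies of AGGTGGCGC, from bases 55, 92 and 111, and the Sox21a window held 2 copies of AGATGGCGC, from bases 73 and 184. Both D windows held AACAAT, with 2 copies in the nearer (bases 100 and 118) and 1 in the farther (base 102). These were the only 2 of the 9 Sox windows with AACAAT, a core present in 23.8% of all IDR windows. The 2 CTCF motifs were chosen after the windows had been read, so their presence is a description.

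Of the 8 Sox genes, 3 had an annotated start site within 500 bp of an IDR summit: Sox14, Sox100B and Sox102F. Of all protein-coding genes, 15.0% did. The same 3 genes had such a summit among the highest regions of each replicate, meaning the 3684 regions of highest signal value, as many as the IDR list holds. The shares of all protein-coding genes there were 14.2% in replicate 1, 15.3% in replicate 2 and 14.4% in replicate 3. When the whole locus was taken, 7 of 8 Sox genes held or neighboured an IDR region, all but SoxN, against 41.1% of all protein-coding genes. The region between Sox21a and Sox21b counted for both genes, and the nearest coding start to both Sox15 regions was that of RpS23. The share of all genes was not matched for locus length. The Sox count was 5 with a flank of 2 kb and 8 with 10 kb, flanks at which the share of all protein-coding genes was not computed. In the pooled list, which holds 25066 regions called on all replicates together at a relaxed threshold, 5 of 8 Sox genes had a summit within 500 bp of a start site (Sox14, SoxN, Sox15, Sox100B and Sox102F), against 45.1% of all protein-coding genes. The signal value is the authors' score per region with no stated scale, so regions were compared by rank within a list, rank 1 being the highest.

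**Figure D1:**
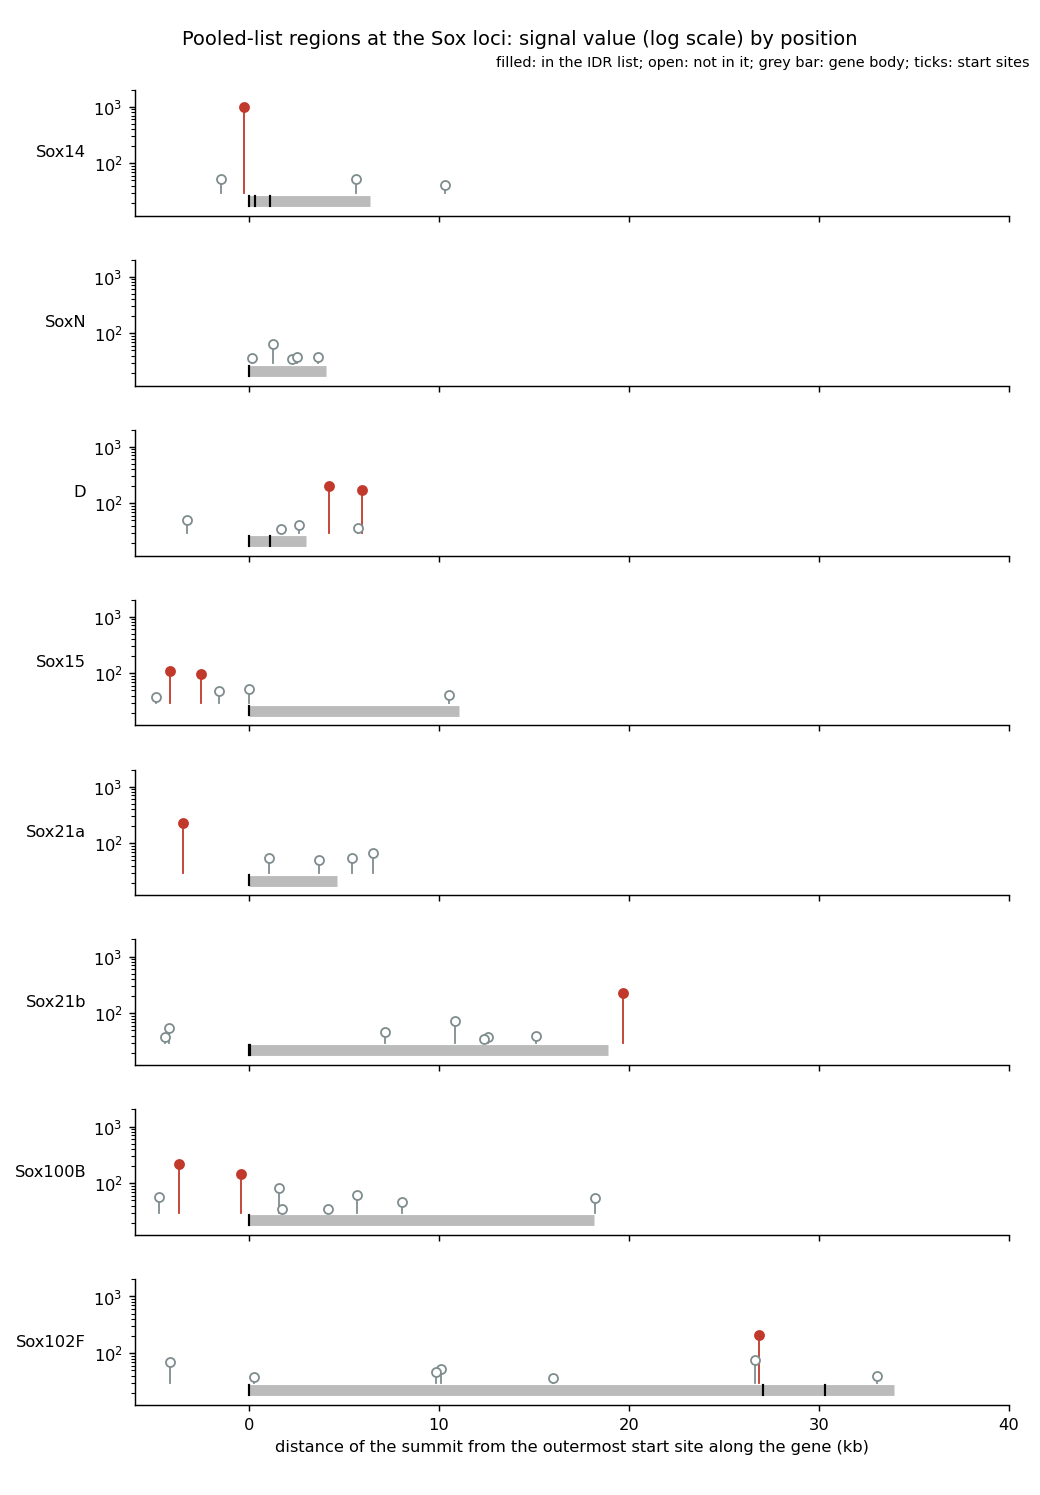
Regions of the pooled list in the 8 Sox loci, 1 panel per gene, plotted by distance of the summit from the outermost start site in kb (x axis) and by signal value on a log scale (y axis); filled symbols are IDR regions, grey bars gene bodies and ticks start sites. Sox14 shows 1 region at 999.8 above 3 regions of at most 53.0, and SoxN shows no filled symbol.

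The strongest region of the family lay upstream of Sox14 (FBgn0005612), which the annotation places at chr2R:23978801-23985177 on the plus strand with 3 transcripts and 3 start sites. The IDR region spanned chr2R:23978402-23978701 with its summit at 23978553, which is 248 bp upstream of the first start site, 546 bp upstream of the second and 1342 bp upstream of the most internal. Its signal value was 999.8 and its IDR rank 24 of 3684. In the replicate lists its signal value was 334.3, 297.0 and 355.5 in replicates 1, 2 and 3, with ranks 22, 34 and 20 (mean 25.3 ± 7.57, SD, n = 3). The region was among the 34 highest of 30000 in every replicate, and its summit moved by 9, 0 and 0 bp from the IDR summit. The rest of the locus was low. Its next strongest pooled regions both had a signal value of 53.0, at ranks 9470 and 9472; the first lay in the promoter window of the neighbouring gene PPP1R15 and the second in a coding exon. No other Sox locus held so strong a region: the highest value was 224.1, between Sox21a and Sox21b, where the next strongest region of the Sox21a locus had 66.2.

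When each gene was given its strongest IDR region with a summit within 500 bp of a start, 1492 regions were the strongest of at least 1 gene, and that of Sox14 stood 14th of them by signal value, the measure that chose it. The 3 promoter regions next above it belonged to CHMP2B and Tcs5 (1103), CG31145 (1021) and Fbw5 and CG9147 (1001), and the 3 next below to CG18549 (969.6), Atat and Shc (947.1) and GstE13 (924.1). CHMP2B is a subunit of the ESCRT-III membrane complex, Atat an alpha-tubulin acetyltransferase and Shc a signalling adaptor. The Sox14 region was 300 bp wide, against 297 to 363 bp in these 6. Its summit lay 248 bp upstream of a start, farther out than the other 6, which lay between 169 bp upstream and 61 bp downstream. Among all 1641 IDR summits within 500 bp of a coding start, strongest of a gene or not, the median position was 97 bp upstream, and 16.1% lay farther upstream than that of Sox14.

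**Figure D2:**
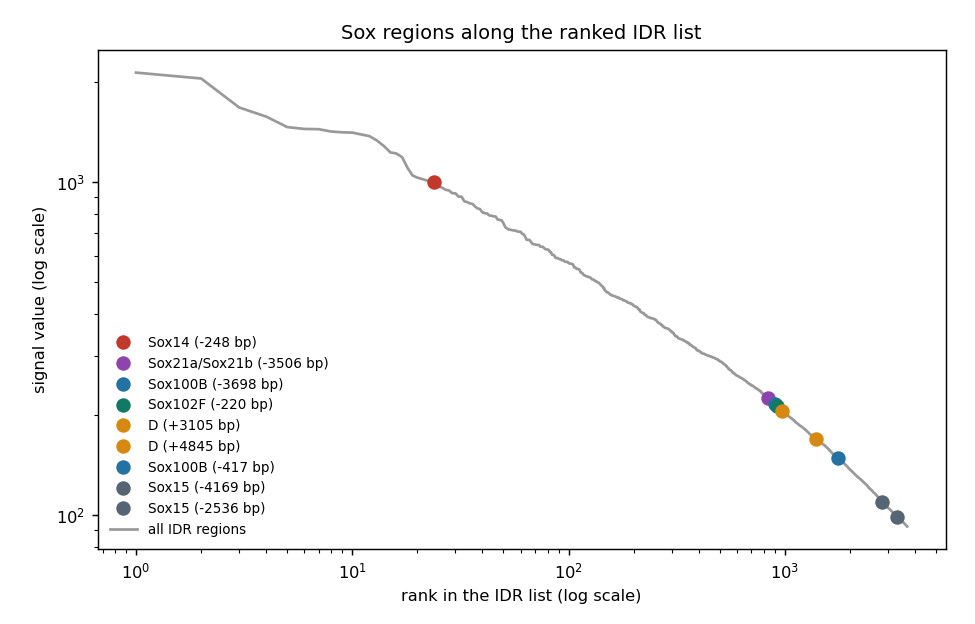
Signal value (y axis, log scale) against rank (x axis, log scale) for the 3684 IDR regions, with the 9 regions of the Sox loci marked. Sox14 at rank 24 stands apart from the other 8, which lie between ranks 834 and 3320.

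Sox102F (FBgn0039938), of the group that holds mammalian SOX5 and SOX6, lies on chromosome 4 at 800436-834393 on the minus strand, with 3 start sites. Its IDR region, chr4:807369-807764, had its summit 220 bp upstream of the middle start site at 807347, and 26826 bp downstream of the outermost start. The signal value was 212.8 and the IDR rank 920. Signal values were 70.7, 73.5 and 73.0 in replicates 1, 2 and 3, and ranks were 752, 1038 and 956 (mean 915 ± 147, SD, n = 3). The highest rank number was 1.38 times the lowest, against a median of 2.21 over the 3492 IDR regions with a region in every replicate list, and 88.2% of those regions varied at least as much. The outermost start at 834393 had only a pooled region of signal value 37.2, below the lowest IDR value of 92.4.

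Sox100B (FBgn0024288), whose product acts in male gonad development, lies at chr3R:31065253-31083407 on the plus strand with 1 start site. Its promoter region had a summit 417 bp upstream of the start, a signal value of 147.9 and IDR rank 1764. Signal values were 37.8, 49.6 and 53.7 in replicates 1, 2 and 3, with ranks 2179, 2193 and 1722 (mean 2031 ± 268, SD, n = 3). Of the IDR summits in promoters, 4.2% lay farther upstream. A stronger region, chr3R:31061491-31061602, lay 3698 bp upstream of Sox100B, with a signal value of 215.1 and IDR rank 901. This summit was 345 bp upstream of a start site of dco, which encodes a casein kinase 1, so it lies in the promoter window of that gene. Its signal values were 73.4, 71.5 and 73.3 in replicates 1, 2 and 3, and its ranks 693, 1099 and 939 (mean 910 ± 205, SD, n = 3). At 112 bp it was narrow: 1.06% of IDR regions were narrower. Most IDR regions shared 1 width, the median of 396 bp, and 12.5% were narrower than that. In the lists of replicates 1, 2 and 3 the overlapping region was 356, 396 and 400 bp wide, so the narrow width was not seen there. It is the window with 3 copies of AGGTGGCGC, a motif chosen after the windows had been read. AGGTGGCGC was found in 1.09% of all IDR windows and 0.288% of windows of the 20865 pooled regions that overlap no IDR region, called lower-ranked here.

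Sox21a (FBgn0036411) and Sox21b (FBgn0042630) are neighbours on 3L, 4286 bp apart, and both are transcribed from the minus strand. A single IDR region lay between them, chr3L:14111426-14111821, with its summit 3506 bp upstream of the Sox21a start site and 781 bp past the 3′ end of Sox21b. It was counted in both loci and once in the total of 9. Its signal value of 224.1 was the second highest of the family, at IDR rank 834. Signal values were 76.2, 78.1 and 66.1 in replicates 1, 2 and 3, with ranks 649, 933 and 1147 (mean 910 ± 250, SD, n = 3). The AGATGGCGC core that it held in 2 copies, also chosen after the windows had been read, was present in 1.33% of all IDR windows and 0.412% of lower-ranked windows. The Sox21b start sites lay 19673 bp and more from the nearest IDR summit, the farthest of the family.

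D (FBgn0000411), a group B Sox gene like SoxN and Sox21a, lies 44285 bp from Sox21b at chr3L:14175610-14178620 on the minus strand. Both of its IDR regions lay past the 3′ end in intergenic sequence. The nearer, chr3L:14174234-14174629, was 1178 bp past the end of the gene, 3105 bp from the inner start and 4188 bp from the outer, with a signal value of 205.0 and IDR rank 976. The farther, chr3L:14172494-14172889, was 2918 bp past the end, with a signal value of 169.1 and rank 1401. The nearer region had signal values of 38.2, 67.6 and 99.1 in replicates 1, 2 and 3, with ranks 2144, 1233 and 498 (mean 1292 ± 825, SD, n = 3). The farther had signal values of 32.6, 56.5 and 80.9, with ranks 2877, 1732 and 772 (mean 1794 ± 1054). By the ratio of the highest rank number to the lowest, the D regions varied most of the 9, at 4.31 and 3.73, whereas by the SD of the rank the Sox15 regions did. Of the IDR regions, 16.6% varied at least as much as the nearer and 20.6% at least as much as the farther, and 21.2% had their replicates in the same order. Both regions were still among the highest regions of every replicate.

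Sox15 (FBgn0005613), known for a role in the wing hinge and in mechanosensory organs, lies at chr2R:14201390-14212413 on the minus strand. It had 2 IDR regions, and the stronger, chr2R:14216384-14216779 (signal value 109.5, rank 2825), had its summit 4169 bp upstream of Sox15 and 4 bp upstream of a start site of RpS23, a protein of the small ribosomal subunit. The weaker, chr2R:14214751-14215146 (signal value 98.5, rank 3320), had an intergenic summit, 2536 bp upstream of Sox15 and 1629 bp from the start of RpS23. The near end of RpS23 lay 2682 bp upstream of Sox15, so this region overlapped that end of RpS23. The stronger had signal values of 51.2, 46.9 and 35.8 and ranks of 1322, 2402 and 3497 in replicates 1, 2 and 3 (mean 2407 ± 1088, SD, n = 3). The weaker had signal values of 31.7, 32.4 and 26.0 and ranks of 3054, 4443 and 6156 (mean 4551 ± 1554), so that it was among the highest regions of replicate 1 alone. At the Sox15 start itself the pooled list held a region with signal value 53.0 at rank 9482, for which replicate 1 listed no region. Among the 9 Sox windows, only those of Sox15 matched GGTCACACT, the core of the M1BP promoter site, and CAGGTAG, the site of the early embryonic activator Zelda, with 1 match each. GGTCACACT was present in 1.6% of all IDR and 0.839% of lower-ranked windows, and CAGGTAG in 0.841% of all IDR and 1.4% of lower-ranked windows.

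SoxN (FBgn0029123) lies at chr2L:8825645-8829670 on the plus strand, with 43144 bp and 33105 bp to its coding neighbours CG42710 and CG32986. It had no IDR region within 5 kb and no region among the highest of any replicate. The nearest IDR region, chr2L:8834725-8835120, had its summit 5253 bp past the 3′ end of SoxN. Loci were judged by overlap, and the near edge of this region was closer still, only just outside the limit of 5 kb. The region had a signal value of 129.6, IDR rank 2191 and replicate ranks of 4747, 2578 and 1865. The strongest of the 5 pooled regions in the locus lay in coding sequence 1242 bp downstream of the start, at chr2L:8826689-8827084, with a signal value of 63.7 and rank 6673. Replicates 1, 2 and 3 listed that region at ranks 4601, 9364 and 18342. At the SoxN start the pooled region had a signal value of 37.0 and rank 21089, near the lowest value of the list, 34.2.

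**Figure D3:**
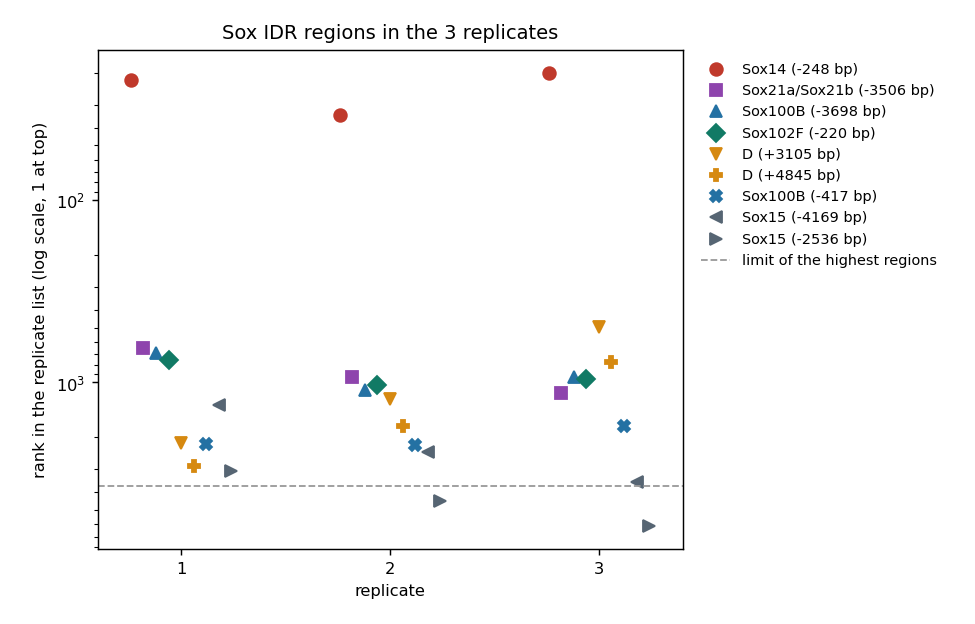
Rank of each of the 9 IDR regions of the Sox loci (y axis, log scale, 1 at the top) in the 3 replicate lists (x axis), with a dashed line at rank 3684. Sox14 lies at ranks 22, 34 and 20, the D regions spread most on this scale, and 1 Sox15 region crosses the line in replicates 2 and 3.

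Set side by side, the distance from an annotated start to the nearest IDR summit was 220 bp in Sox102F, 248 bp in Sox14, 417 bp in Sox100B, 2536 bp in Sox15, 3105 bp in D, 3506 bp in Sox21a, 9278 bp in SoxN and 19673 bp in Sox21b. The median over all protein-coding genes was 9800 bp (quartiles 2720 and 24878 bp). Of all protein-coding genes, 11.1% were as near as Sox102F, 11.9% as near as Sox14 and 14.3% as near as Sox100B, whereas 48.7% were as near as SoxN and 68.8% as near as Sox21b. The nearest coding start site to 3 of the 9 regions was that of another gene: dco once and RpS23 for both Sox15 regions. Of the 9 summits, 3 lay within 500 bp of a Sox start, 2 within 500 bp of dco or RpS23, and 4 in intergenic sequence. A summit within 500 bp of a coding start was classed as promoter before any other class, so the Sox102F summit, which lies inside the gene body, is among the promoters. The intron class held none of the 9, against 37.8% of all IDR summits, while 44.5% of all were in promoters and 14.4% intergenic.

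By strength, 7 of the 9 Sox regions had IDR ranks of 1842 or better, and the same number had the highest −log10 q of that list, a value shared by 53.9% of IDR regions. Among the highest regions of every replicate were 8 of the 9, against 59.1% of all IDR regions. The Sox loci covered 0.174 Mb and held 63.1, 51.6 and 45.9 of the highest regions per Mb in replicates 1, 2 and 3 (mean 53.5 ± 8.76, SD, n = 3), against 30.7, 31.3 and 30.9 per Mb over all protein-coding loci (mean 31.0 ± 0.285). The Sox density was above that of all coding loci in each replicate, resting on 11, 9 and 8 regions, and it was not tested because the family was listed with results of these data known. IDR regions reached 51.6 per Mb in the Sox loci, against 31.1 over all coding loci, and 50.6 per Mb when Sox14 was left out.

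**Figure D4:**
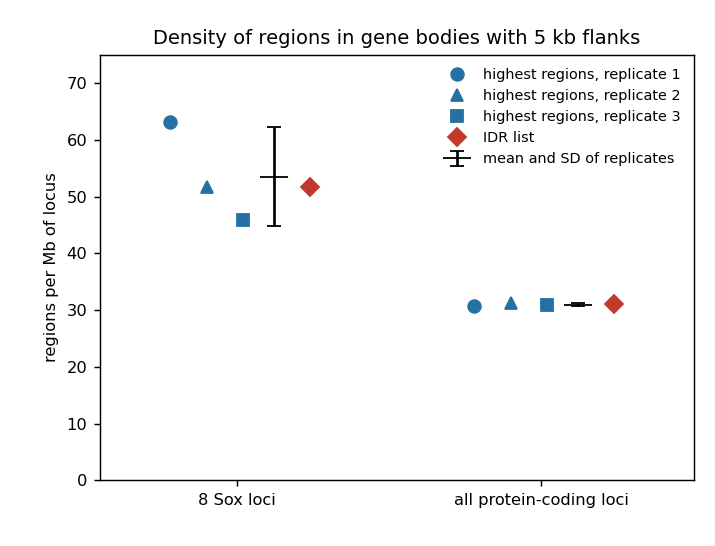
Regions per Mb of locus (y axis) in the 8 Sox loci, left, and in all protein-coding loci, right; blue points are the highest regions of each replicate, the bar their mean and SD, and the red diamond the IDR list. The Sox points lie at 63.1, 51.6 and 45.9 per Mb and those of all coding loci between 30.7 and 31.3.

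Below the IDR threshold the Sox loci held 39 pooled regions that overlap no IDR region, with signal values of 34.4 to 82.8 (median 46.2). Every replicate listed 8 of them, 22 were listed in 2 replicates and 9 in 1. Some of the 39 overlap one another and share replicate regions: merged, they made 34 stretches. The strongest lay in the Sox100B intron, 1556 bp downstream of the start, with a signal value of 82.8 at rank 4355, ranks of 1794 and 5164 in replicates 1 and 3 and no region in replicate 2. By position, 12 were in introns, 11 in coding exons and 2 in 3′ UTRs, classes that held 0 of the 9 IDR regions of the family. A further 6 were in promoter windows and 8 were intergenic. Over all genes, coding exons held 18.1% of lower-ranked regions and 0.19% of IDR regions.

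The base composition of the 9 Sox windows averaged 37.8 ± 7.33% G+C (SD over windows) and ranged between 27.4% in the farther D region and 47.8% in the stronger Sox15 region. All IDR windows averaged 36.8 ± 6.32% and lower-ranked windows 45.7 ± 9.70%. The Sox14 window, at 46.3% G+C, held none of the 10 motifs searched, which says only that these letters are absent in that window. The core AACAAT was present in 2 of the 9 Sox windows, both of D, against 23.8% of all IDR and 17.7% of lower-ranked windows, and ACAAAG, a second Sox core, in 0 of 9, against 14.3% and 12.9%. TATAAA was present in 3 of the 9, among them the Sox102F and the farther D windows, against 31.7% of all IDR and 17.8% of lower-ranked windows. TATCGATA, the site of the promoter factor DREF, GAGAGAG, bound by the GAGA factor, and the E-box CACGTG were in none of the 9, and each was in at most 3.37% of all IDR windows.

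**Figure D5:**
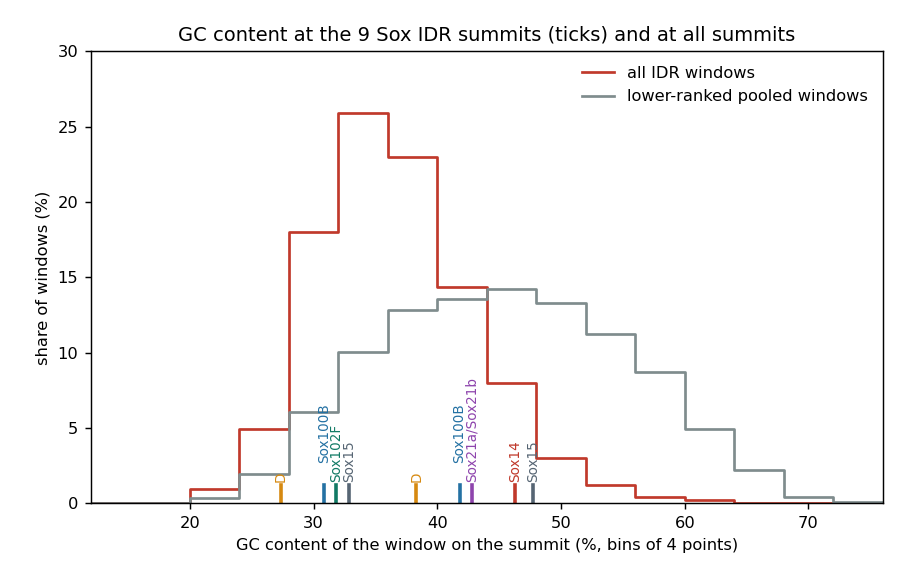
G+C content (x axis, percent) of the summit windows: ticks for the 9 Sox regions and histograms for all IDR and all lower-ranked windows (y axis, share of windows in percent). The Sox ticks run between 27.4% and 47.8%, and the IDR histogram lies left of the lower-ranked one.

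Other gene groups were read in the same way. Of 8 other HMG-box genes, 3 had a start within 500 bp of an IDR summit and 7 had an IDR region in the locus, the same counts as in the Sox family, against 15.0% and 41.1% of all protein-coding genes. The 3 were bbx (signal value 388.3, rank 247), cic, a repressor that acts downstream of receptor tyrosine kinases (160.4, rank 1548), and HmgZ, an architectural chromatin protein (116.9, rank 2575). Of 14 genes of the neuroectoderm or known to act with group B Sox proteins, 1 had such a summit, comm, which controls axon crossing of the midline (97.4, rank 3384), and 5 had an IDR region in the locus. Among 3 genes linked to ecdysone and to pruning, both parts of the ecdysone receptor had a summit within 500 bp of a start, EcR (100.7, rank 3207) and usp (165.7, rank 1456). Mical, the remaining gene, had no such summit and no IDR region in its locus. Sox14 exceeded all the listed genes with such a summit in signal value, the measure that chose the family, so its place is only a description. Sox102F and Sox100B, at 212.8 and 147.9, lay within the range of those genes. The promoter regions of bbx, cic and usp were among the highest regions of every replicate. That of EcR was among them in replicate 2 alone and that of HmgZ in replicate 3 alone, whereas that of comm was among them in no replicate.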

How the data were processed

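The deposited dm6 region lists of 3 biological replicates, of the replicates pooled and of the regions that passed IDR were used. In each list the signal value is the authors' score per region with no stated scale, the −log10 q is the authors' deposited value, and the summit is the authors' offset in bp from the region start. Per the deposited file listings, the replicate and pooled lists are relaxed lists made with a control alignment as input for IDR. Neither aligner, peak caller nor IDR cutoff is named in the sources used here, and the dm3 lists are not used here. The lists carry no read counts, so each replicate's depth is unknown and no interval for counting error is given.

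Gene models were those of Ensembl release 115 (BDGP 6.54), and sequence came from the RefSeq Release 6 genome; 0 regions ended past a chromosome end. A locus was the gene body with 5 kb on either side, overlap needed 1 bp, promoter summits were those no more than 500 bp from a start site, and motifs were searched on both strands of windows reaching 100 bp to either side of a summit. The members and lists were chosen with earlier results of these data known, so no test was made. The genes named were the 8 Sox genes and genes with a start site within 500 bp of, or nearest to, a Sox IDR summit. Also named were the 3 promoter genes on either side of Sox14 in signal value, and members of 3 lists whose start lies within 500 bp of an IDR summit. Mical, a list member without such a summit, was named to complete its list, and gene neighbours were added as locations. Of the 10 motifs, 2 were added after the windows had been read. Sequences of 5 of the 9 windows are reported here, and the other 4 are not. Counts over loci were repeated with other flanks, promoter counts with other windows, most counts with shorter lists and all without Sox14; the count of regions shared with every replicate was also repeated with a stricter overlap. Values over replicates were repeated leaving out each replicate. The counting steps were tested on simulated data. Values were computed with Python 3.11.15 and NumPy 2.4.6 and drawn with Matplotlib 3.10.9.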

Additional observations from a re-analysis of the deposited data

How the results depend on the processing

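With a flank of 2 kb in place of 5 kb the IDR regions numbered 5 in place of 9, those among the highest regions of every replicate 5 in place of 8, and the highest regions per replicate 5.67 in place of 9.33, against 12 with 10 kb. Sox genes with an IDR region in the locus numbered 5 with 2 kb and 8 with 10 kb, in place of 7. The share of all protein-coding genes was not computed at those flanks. With the highest regions cut to 1842 per replicate, 4 regions were in every replicate, 2.33 genes per replicate had a promoter summit in place of 3, and 6.33 regions per replicate lay in the loci. A promoter window of 250 bp left 1.67 genes per replicate. The 12533 strongest regions of the pooled list put 28 in the loci, in place of 50. Leaving out Sox14, an alternative chosen after seeing the data, left 2 of the other 7 genes with a promoter summit in each replicate. Leaving out each replicate gave 8 to 8 regions in every remaining replicate, 3 to 3 genes and 8.5 to 10 regions per replicate. The density of IDR regions stayed between 37.8 and 51.6 per Mb under the alternatives run. By gene, the mean rank was taken over each replicate's own strongest region in the locus, which can differ between replicates. For SoxN these ranks were 4601, 9364 and 9580 at 5 kb, and replicate 3 gave a region at the start site. A 10 kb flank took SoxN to a mean rank of 3015, against 7848. A 2 kb flank took Sox15 to 9893, Sox21a to 6205 and Sox100B to 1903. The cause of these shifts is the construction of the alternatives, which take in or leave out regions. No paired analysis was possible because the study has only 1 group. Depth is unknown, 1 transgenic line supplied all replicates, and the control used by the authors was not analysed here.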
